A study of Drosophila melanogaster with 12 samples.

Results

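The JNK pathway was followed through 10 genes in adult *Drosophila* heads with and without TBPH, the fly homolog of the RNA-binding protein TDP-43. The 10 genes are *egr*, *grnd*, *wgn*, *msn*, *slpr*, *hep*, *bsk*, *Jra*, *kay* and *puc*. They were taken by name as pathway genes, on the condition that a probe set is annotated to that gene alone. The condition uses no measured value, but the pathway was picked with earlier results of these data known. All 10 met the condition, with 16 of the 18952 probe sets on the array, and they are 10 of the 11982 genes measured. No gene was removed for a low level, so all 10 were tested in each comparison.

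JNK signaling is a kinase relay that carries injury, stress and inflammatory signals to the nucleus. In flies the TNF-type ligand Eiger (*egr*) binds the receptors Grindelwald (*grnd*) and Wengen (*wgn*), and the kinases Misshapen (*msn*), Slipper (*slpr*) and Hemipterous (*hep*) act in sequence on Basket (*bsk*), the JNK itself. Basket phosphorylates the AP-1 transcription factors, fly Jun (*Jra*) and fly Fos (*kay*), and AP-1 induces *puc*, whose phosphatase switches Basket off again. The pathway is known for dorsal closure of the embryo, wound healing, cell death and the response of neurons to axon injury. The signal itself travels by phosphorylation, which an expression array does not measure, so the values below are transcript levels only.

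Head RNA was hybridized from 4 groups, each with 3 biological replicates, collected 60 h after eclosion. The neuronal rescue carries UAS-TBPH and the neuronal GeneSwitch driver *elav*-GS-GAL4 in a background labeled as *tbph* 23/23, and was fed 5 mM RU-486 for the whole 60 h. The *tbphΔ142* and *tbphΔ23* flies are constitutive null mutants, and *w1118* is the control strain. Both mutants and *w1118* were kept on standard food without the drug. In the rescue, TBPH re-expression thus comes together with both transgenes and the drug, whose effects cannot be told apart, and re-expression was limited to adult neurons while the arrays read the whole head. The sex of the flies and the number of heads per array are not given in the sources used here.

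Values are log2 intensities, where a step of 1 is a doubling. The limma test was run on all 11982 genes with 3 arrays a group, and a gene counted as called where its p, adjusted by Benjamini and Hochberg's method, was under 0.05. Over all genes, 35% passed for the rescue against *w1118*, 25% for *tbphΔ142* against *w1118*, 21.3% for *tbphΔ23* against *w1118*, 27.5% for the rescue against *tbphΔ142*, 29.5% for the rescue against *tbphΔ23* and 3.49% for *tbphΔ142* against *tbphΔ23*. The brighter TBPH probe set read 9.13 to 9.78 in the rescue, 5.32 to 5.52 in *tbphΔ142*, 8.11 to 8.32 in *tbphΔ23* and 7.96 to 8.02 in *w1118*. Its position relative to the deletions is unknown here, so it does not test the genotype of *tbphΔ23*. Rescue arrays correlated with their own group at a mean r of 0.981 to 0.989, against at least 0.996 in the other groups. The neuronal marker *elav* and the glial marker *repo* were readily measured in every group, at group means of 9.42 to 9.78 and 8.38 to 8.88, and both moved with the groups. *elav* was higher against *w1118* by 0.295 in the rescue, 0.305 in *tbphΔ142* and 0.36 in *tbphΔ23* (adjusted p = 0.0139, 0.0165 and 0.00747), and *repo* was lower by -0.35 in *tbphΔ142* and -0.33 in *tbphΔ23* (0.00572 and 0.00977) with 0.15 in the rescue, not called (0.17). Against *w1118*, 4, 2 and 2 of 6 neuronal markers were higher and 2, 3 and 3 of 7 glial markers were lower in the rescue, *tbphΔ142* and *tbphΔ23*, with none in the opposite direction. Markers of other head cells moved too. The mean over 7 fat body markers was 10.49 to 10.71 in the rescue, 8.87 to 9.74 in *tbphΔ142*, 7.74 to 8.54 in *tbphΔ23* and 9.7 to 10.37 in *w1118*, with 4 higher and 2 lower in the rescue, 2 lower in *tbphΔ142* and 5 lower in *tbphΔ23*. The mean over the 3 measured tracheal markers was 6.77 to 7.32 in the rescue, 8.64 to 8.89 in *tbphΔ142*, 9.01 to 9.19 in *tbphΔ23* and 9.64 to 9.84 in *w1118*, and the mean over 8 hemocyte markers was 6.72 to 6.91, 6.02 to 6.05, 5.74 to 5.77 and 5.38 to 5.89 in the same groups. The mean over 5 muscle markers was 9.39 to 10.26 in the rescue, against 10.51 to 10.75 in the other 9 arrays. The part of these cells in the results below was not tested, and in whole-head RNA fewer cells of a type and less RNA per cell cannot be told apart.

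The ligand and both receptors had their highest transcript levels in *w1118*. At the gene level, for each of *egr*, *grnd* and *wgn*, all 9 arrays of the rescue and the mutants lay below all 3 *w1118* arrays, a pattern found in 10.7% of all genes. The feedback gene *puc* was the only 1 of the 10 with the opposite pattern, all 9 arrays above *w1118*, which 7.14% of all genes had. The steps between receptor and nucleus split up, with *msn* lower in the rescue, *bsk* lower in *tbphΔ142*, and *slpr*, *hep*, *Jra* and *kay* not called in any comparison at the gene level, although *slpr* and *hep* passed under some other settings of the fit. In the rescue none of the ligand and receptor genes was called higher than in either mutant at the gene level.

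**Figure D1:**
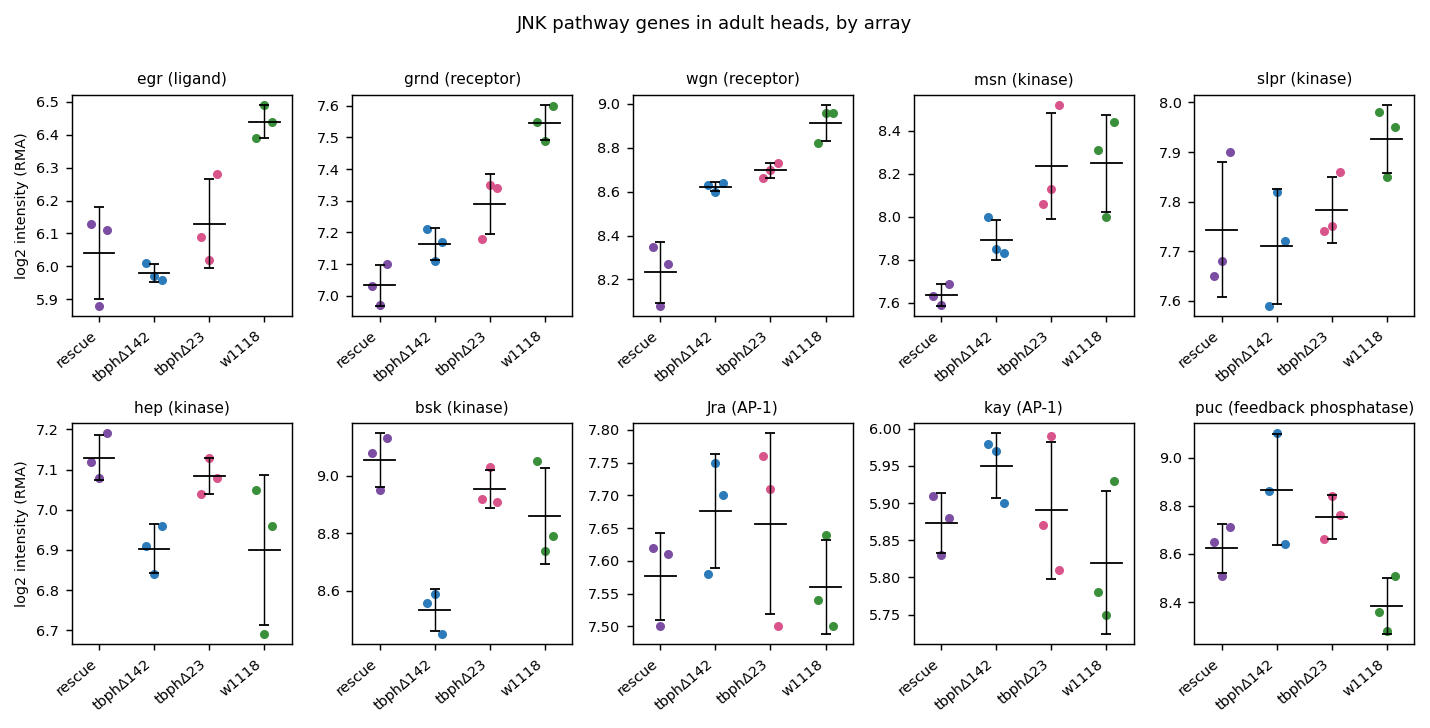
Log2 intensity (RMA) of the 10 JNK pathway genes on each of the 12 arrays, in the rescue, tbphΔ142, tbphΔ23 and w1118. Points are arrays, horizontal bars are group means and whiskers are 1 SD (n = 3), and each panel has its own vertical axis that does not start at 0. In the panels of egr, grnd and wgn the w1118 arrays stand above all 9 other arrays. In the panel of puc they stand below them, except that the highest w1118 point and the lowest rescue point are level at 8.51.

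Eiger, the ligand, was lower in both mutants and remained low in the rescue. Its gene-level value is the median of 2 probe sets. It was 6.13, 5.88 and 6.11 in the rescue, 6.01, 5.97 and 5.96 in *tbphΔ142*, 6.09, 6.02 and 6.28 in *tbphΔ23*, and 6.39, 6.49 and 6.44 in *w1118*. At the gene level no array outside *w1118* reached the lowest *w1118* value, while the rescue overlapped both mutants. The change against *w1118* was -0.40 in the rescue (SE 0.0841, adjusted p = 0.00281), -0.46 in *tbphΔ142* (SE 0.0841, adjusted p = 0.0019) and -0.31 in *tbphΔ23* (SE 0.0841, adjusted p = 0.0216). These 3 comparisons share the *w1118* arrays. The call in *tbphΔ23* was lost when 1 of 4 arrays was left out, with adjusted p = 0.0717 without *tbphΔ23* replicate 1, 0.0933 without *tbphΔ23* replicate 2, 0.069 without *w1118* replicate 2 and 0.058 without *w1118* replicate 3.

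The 2 *egr* probe sets placed the rescue on opposite sides of *tbphΔ142*. Probe set 1639671_at read 7.47, 7.20 and 7.54 in the rescue, 7.66, 7.62 and 7.66 in *tbphΔ142*, 7.58, 7.61 and 7.66 in *tbphΔ23*, and 7.93, 8.0 and 8.06 in *w1118*. On this probe set the rescue was the lowest group, by -0.59 against *w1118* (adjusted p = 0.000142) and by -0.245 against *tbphΔ142* (adjusted p = 0.0483). Probe set 1629442_at read 4.78, 4.55 and 4.68 in the rescue, 4.37, 4.32 and 4.25 in *tbphΔ142*, 4.61, 4.42 and 4.89 in *tbphΔ23*, and 4.84, 4.98 and 4.81 in *w1118*. Here *tbphΔ142* was the lowest group, the rescue lay 0.36 above it (adjusted p = 0.0302), and the rescue was not called against *w1118* (-0.21, adjusted p = 0.174). Against *w1118*, *tbphΔ142* was called lower on both probe sets. *tbphΔ23* was called lower on 1639671_at (-0.38, adjusted p = 0.0066) but not on 1629442_at (-0.24, adjusted p = 0.158), where its arrays overlapped those of *w1118*. RefSeq lists 2 transcripts of *egr*, and which of them each probe set reads is not known here, so the gene-level change of 0.06 between the rescue and *tbphΔ142* (adjusted p = 0.681) averages opposite shifts.

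Grindelwald, a TNF receptor known for its role in tumor-like growth of fly epithelia, was lower than in *w1118* in all 3 other groups. Its probe set read 7.03, 6.97 and 7.10 in the rescue, 7.21, 7.11 and 7.17 in *tbphΔ142*, 7.18, 7.35 and 7.34 in *tbphΔ23*, and 7.55, 7.49 and 7.60 in *w1118*. The rescue arrays were below all other arrays, a position that 11% of all genes share, and the mutants overlapped each other. Against *w1118*, *grnd* changed by -0.515 in the rescue (SE 0.0676, adjusted p = 8.99e-05), -0.38 in *tbphΔ142* (SE 0.0676, adjusted p = 0.00147) and -0.26 in *tbphΔ23* (SE 0.0676, adjusted p = 0.0176). The rescue was also lower than *tbphΔ23*, by -0.26 (adjusted p = 0.0134), and was not called against *tbphΔ142* (-0.13, 95% confidence interval -0.282 to 0.014, adjusted p = 0.177). The *tbphΔ23* call against *w1118* was lost without *tbphΔ23* replicate 1 (adjusted p = 0.0758) and without *w1118* replicate 3 (0.0673). The rescue call against *tbphΔ23* was lost without *tbphΔ23* replicate 2 (0.0558), *tbphΔ23* replicate 3 (0.0533) or rescue replicate 2 (0.0534).

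Wengen, the other TNF receptor, gave the largest change of the 10 genes in the rescue against *w1118*. It read 8.35, 8.08 and 8.27 in the rescue, 8.63, 8.60 and 8.64 in *tbphΔ142*, 8.66, 8.70 and 8.73 in *tbphΔ23*, and 8.82, 8.96 and 8.96 in *w1118*. The 4 groups did not overlap in any pair, in the order rescue, *tbphΔ142*, *tbphΔ23* and *w1118* from low to high. In 11% of all genes the rescue lay below all other arrays, and in 13.4% *tbphΔ142* lay wholly below *tbphΔ23*. The rescue was lower by -0.68 against *w1118* (SE 0.074, adjusted p = 2.01e-05), by -0.39 against *tbphΔ142* (adjusted p = 0.00219) and by -0.46 against *tbphΔ23* (adjusted p = 0.000574), a fold of 1.6 below *w1118*. In the mutants the change against *w1118* was -0.29 for *tbphΔ142* (adjusted p = 0.0133) and -0.22 for *tbphΔ23*, which narrowly missed the threshold (95% confidence interval -0.381 to -0.057, adjusted p = 0.0566). *tbphΔ142* and *tbphΔ23* did not differ beyond their error (-0.07, adjusted p = 0.725).

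Both receptors thus moved further from *w1118* in the rescue, *wgn* against either mutant and *grnd* against *tbphΔ23*. Tracheal, muscle and cuticle markers were also lowest in the rescue, with 3 of 3, 4 of 5 and 4 of 6 measured markers lower than in *w1118*, and hemocyte markers were highest, with 6 of 8 higher. Their part in the receptor values was not tested. Leaving out rescue replicate 1, which correlated least with its group, left the same 4 members called against *w1118*, the same 3 against *tbphΔ23* and the same 2 against *tbphΔ142*.

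Misshapen, a Ste20-type kinase at the head of the relay, was low in the rescue. It read 7.63, 7.59 and 7.69 in the rescue, 8.0, 7.85 and 7.83 in *tbphΔ142*, 8.06, 8.13 and 8.52 in *tbphΔ23*, and 8.31, 8.0 and 8.44 in *w1118*. All 3 rescue arrays were below the other 9, as in 11% of all genes, while *tbphΔ23* lay within the range of *w1118* apart from its highest array. The rescue fell by 0.61 against *w1118* (SE 0.129, adjusted p = 0.00282) and by 0.60 against *tbphΔ23* (SE 0.129, adjusted p = 0.00421). Against *tbphΔ142* it was not called (-0.255, 95% confidence interval -0.538 to 0.029, adjusted p = 0.18), except in a fit of these groups alone (adjusted p = 0.0493). In *tbphΔ142* the value was -0.36 against *w1118* (adjusted p = 0.0648), and the call there depended on the settings of the fit.

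Slipper, the mixed-lineage kinase that activates Hemipterous, was not called in any comparison. It read 7.65, 7.68 and 7.90 in the rescue, 7.59, 7.82 and 7.72 in *tbphΔ142*, 7.74, 7.75 and 7.86 in *tbphΔ23*, and 7.98, 7.85 and 7.95 in *w1118*. Only *tbphΔ142* lay wholly below *w1118*, as 22.5% of all genes did. The value there was -0.21 (95% confidence interval -0.399 to -0.029, adjusted p = 0.0901), and it passed with array weights (-0.27, adjusted p = 0.0207).

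Hemipterous, the kinase that phosphorylates Basket, is read by 3 probe sets, 1 of them dim. Its gene-level values were 7.12, 7.08 and 7.19 in the rescue, 6.91, 6.84 and 6.96 in *tbphΔ142*, 7.04, 7.13 and 7.08 in *tbphΔ23*, and 7.05, 6.69 and 6.96 in *w1118*. The rescue lay above *w1118* on every array, as did 22.9% of all genes, with a value of 0.23 that did not pass (SE 0.0854, adjusted p = 0.0596). It passed with arrays centred (0.27, adjusted p = 0.0423), quantiles equalised again (0.28, adjusted p = 0.0282) or dim genes left out (0.23, adjusted p = 0.04). Against *tbphΔ142* the value was 0.22 and was not called (adjusted p = 0.0748), but it passed with dim genes left out (0.0488) and with array weights (0.0354). With probe sets tested singly, 1626465_a_at was 0.22 higher in the rescue than in *tbphΔ142* (adjusted p = 0.0237), with arrays of 7.12, 7.08 and 7.19 in the rescue and 6.91, 6.84 and 6.96 in *tbphΔ142*. These are the gene-level values of the same arrays, so this probe set is not separate evidence. Neither 1634949_at (0.11, adjusted p = 0.615) nor the dim 1623804_a_at (-0.04, adjusted p = 0.811) was called in this comparison.

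Basket, the JNK, was the only 1 of the 10 genes called between the 2 alleles. The gene-level value, which equals its probe set 1626404_a_at, was 9.08, 8.95 and 9.13 in the rescue, 8.56, 8.59 and 8.45 in *tbphΔ142*, 8.92, 9.03 and 8.91 in *tbphΔ23*, and 9.05, 8.74 and 8.79 in *w1118*. *tbphΔ142* lay below every other array, and the remaining groups overlapped. Of all genes, 22.5% lay wholly below *w1118* in *tbphΔ142*, and 13.4% lay wholly below *tbphΔ23*. In *tbphΔ142* the value changed by -0.33 against *w1118* (SE 0.0879, adjusted p = 0.0172) and by -0.42 against *tbphΔ23* (SE 0.0879, adjusted p = 0.0247). The rescue was 0.52 above *tbphΔ142* (SE 0.0879, adjusted p = 0.00104). Against *tbphΔ23* and *w1118* the rescue was not called, at 0.10 (adjusted p = 0.452) and 0.19 (adjusted p = 0.116).

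The *bsk* call of *tbphΔ142* against *w1118* was lost without *tbphΔ142* replicate 3 (adjusted p = 0.0621) and without *w1118* replicate 1 (0.061). The call between the alleles was lost without any 1 of the 6 mutant arrays, at adjusted p = 0.0541 to 0.0939. The actin control, a measure of how far the labeled RNA reaches from its 3′ end, differed by 2.67 to 3.03 between its 3′ and 5′ probe sets in *tbphΔ142*, against 1.82 to 2.29 in the rescue, 2.26 to 2.42 in *tbphΔ23* and 2.24 to 2.70 in *w1118*. The same difference for the GAPDH control was 1.91 to 2.11 in *tbphΔ142*, overlapping 1.87 to 2.03 in the rescue and 1.74 to 1.94 in *w1118*, with 1.84 to 1.9 in *tbphΔ23*. The part of the RNA's reach in the *bsk* values, or in other values of *tbphΔ142*, was not tested.

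The 3 *bsk* probe sets gave 3 different orders. The brightest, 1625533_at, read 10.47, 10.45 and 10.56 in the rescue, 10.40, 10.42 and 10.34 in *tbphΔ142*, 10.57, 10.64 and 10.62 in *tbphΔ23*, and 10.53, 10.38 and 10.41 in *w1118*. No comparison on it was called, and *tbphΔ142* differed from *w1118* by -0.06 (adjusted p = 0.563). The dimmest, 1634580_at, read 3.62, 3.83 and 3.71 in the rescue, 3.04, 3.2 and 3.29 in *tbphΔ142*, 3.18, 3.54 and 3.26 in *tbphΔ23*, and 4.04, 3.86 and 4.12 in *w1118*. On this probe set both mutants were lower than *w1118*, *tbphΔ142* by -0.83 (adjusted p = 0.000157) and *tbphΔ23* by -0.68 (adjusted p = 0.000911), without overlap, and the rescue was higher than *tbphΔ142* by 0.55 (adjusted p = 0.00283) and than *tbphΔ23* by 0.39 (adjusted p = 0.0169). The rescue was not called against *w1118* there (-0.28, adjusted p = 0.0641). Such a dim probe set lies near the bottom of the deposited range, which starts at 2.318. RefSeq lists 3 transcripts of *bsk*, and which of them each probe set reads is not known here.

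**Figure D2:**
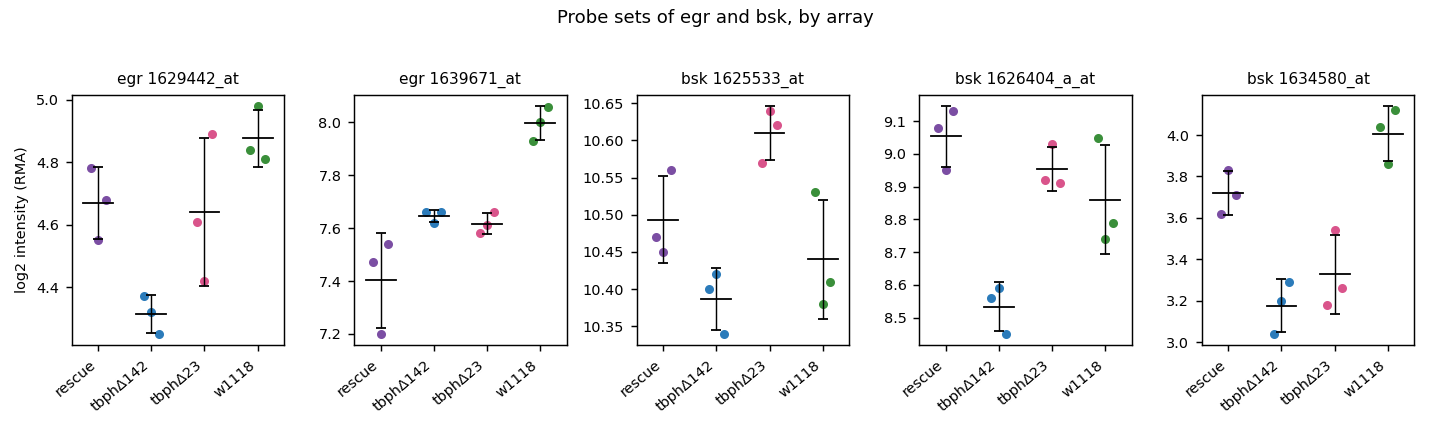
Log2 intensity (RMA) of the 2 egr and 3 bsk probe sets on each array, in the rescue, tbphΔ142, tbphΔ23 and w1118. Points are arrays, horizontal bars are group means and whiskers are 1 SD (n = 3), with a separate vertical axis per panel that does not start at 0. The 2 egr panels place the rescue on opposite sides of tbphΔ142, and among the bsk panels both mutants stand below w1118 only on 1634580_at.

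The AP-1 genes showed no change that passed the test in any of the 6 comparisons. *Jra* read 7.62, 7.50 and 7.61 in the rescue, 7.58, 7.75 and 7.70 in *tbphΔ142*, 7.76, 7.71 and 7.50 in *tbphΔ23*, and 7.54, 7.64 and 7.50 in *w1118*. Its groups overlapped in every comparison, and the value in *tbphΔ142* against *w1118* was 0.115 (95% confidence interval -0.062 to 0.292). *kay* read 5.91, 5.83 and 5.88 in the rescue, 5.98, 5.97 and 5.90 in *tbphΔ142*, 5.87, 5.99 and 5.81 in *tbphΔ23*, and 5.78, 5.75 and 5.93 in *w1118*. These values average a dim and a brighter *kay* probe set, neither of which was called in any comparison. Its value in *tbphΔ142* against *w1118* was 0.13 (95% confidence interval -0.019 to 0.281). The missed threshold does not show that either gene was unchanged, since shifts of up to 0.292 for *Jra* and 0.281 for *kay* lie within these intervals.

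Puckered, the phosphatase that AP-1 induces and a common readout of JNK activity in other fly tissues, was higher in both mutants. It read 8.65, 8.51 and 8.71 in the rescue, 8.86, 9.10 and 8.64 in *tbphΔ142*, 8.66, 8.84 and 8.76 in *tbphΔ23*, and 8.36, 8.28 and 8.51 in *w1118*. The mutants and the rescue overlapped, and the lowest rescue array met the highest *w1118* array to 2 decimals. *puc* was 0.48 higher in *tbphΔ142* (SE 0.111, adjusted p = 0.00736), a fold of 1.4, and 0.37 higher in *tbphΔ23* (SE 0.111, adjusted p = 0.0346), a fold of 1.29. In the rescue it lay 0.24 above *w1118* (95% confidence interval -0.002 to 0.482, adjusted p = 0.118), 0.24 below *tbphΔ142* (change -0.242, adjusted p = 0.135) and 0.13 below *tbphΔ23* (change -0.128, adjusted p = 0.439). None of the 3 passed, though the change against *tbphΔ142* did without *tbphΔ142* replicate 3 (adjusted p = 0.0295). The *tbphΔ23* call was lost without *tbphΔ23* replicate 2 (adjusted p = 0.119), *tbphΔ23* replicate 3 (0.0828), *w1118* replicate 1 (0.0875) or *w1118* replicate 2 (0.113).

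Counted over the 10 genes, 0 rose and 4 fell in the rescue against *w1118*, where 16.9% of all genes rose and 18% fell. In *tbphΔ142* against *w1118*, 1 rose and 4 fell (10% and 15% of all genes), and in *tbphΔ23*, 1 rose and 2 fell (9.4% and 11.9%). Against *tbphΔ142* the rescue had 1 gene higher and 1 lower (14.3% and 13.2%), and against *tbphΔ23* it had 0 higher and 3 lower (14.3% and 15.1%). Between the alleles 0 were higher and 1 was lower in *tbphΔ142* (1.42% and 2.07%). At an unadjusted p under 0.05 the counts of called genes were 5 for the rescue, 7 for *tbphΔ142* and 4 for *tbphΔ23* against *w1118* (43.7%, 35% and 32.4% of all genes), 4 and 3 for the rescue against *tbphΔ142* and *tbphΔ23* (36.9% and 38.8%), and 2 between the alleles (16.4%). Arrays did not overlap, in the higher and lower direction, for 2 and 4 genes in the rescue (22.9% and 23%), 1 and 6 in *tbphΔ142* (17.3% and 22.5%) and 1 and 3 in *tbphΔ23* (17% and 21.2%) against *w1118*. The same counts were 2 and 3 for the rescue against *tbphΔ142* (20.6% and 19.3%), 0 and 3 against *tbphΔ23* (21.7% and 21.3%), and 0 and 5 between *tbphΔ142* and *tbphΔ23* (10.7% and 13.4%). With 10 genes these counts are descriptions, and several of the shares lie near those of all genes. The 10 genes had a median change of -0.08 in the rescue, -0.25 in *tbphΔ142* and 0.03 in *tbphΔ23* against *w1118*, beside 0.013, -0.006 and -0.016 over all genes.

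**Figure D3:**
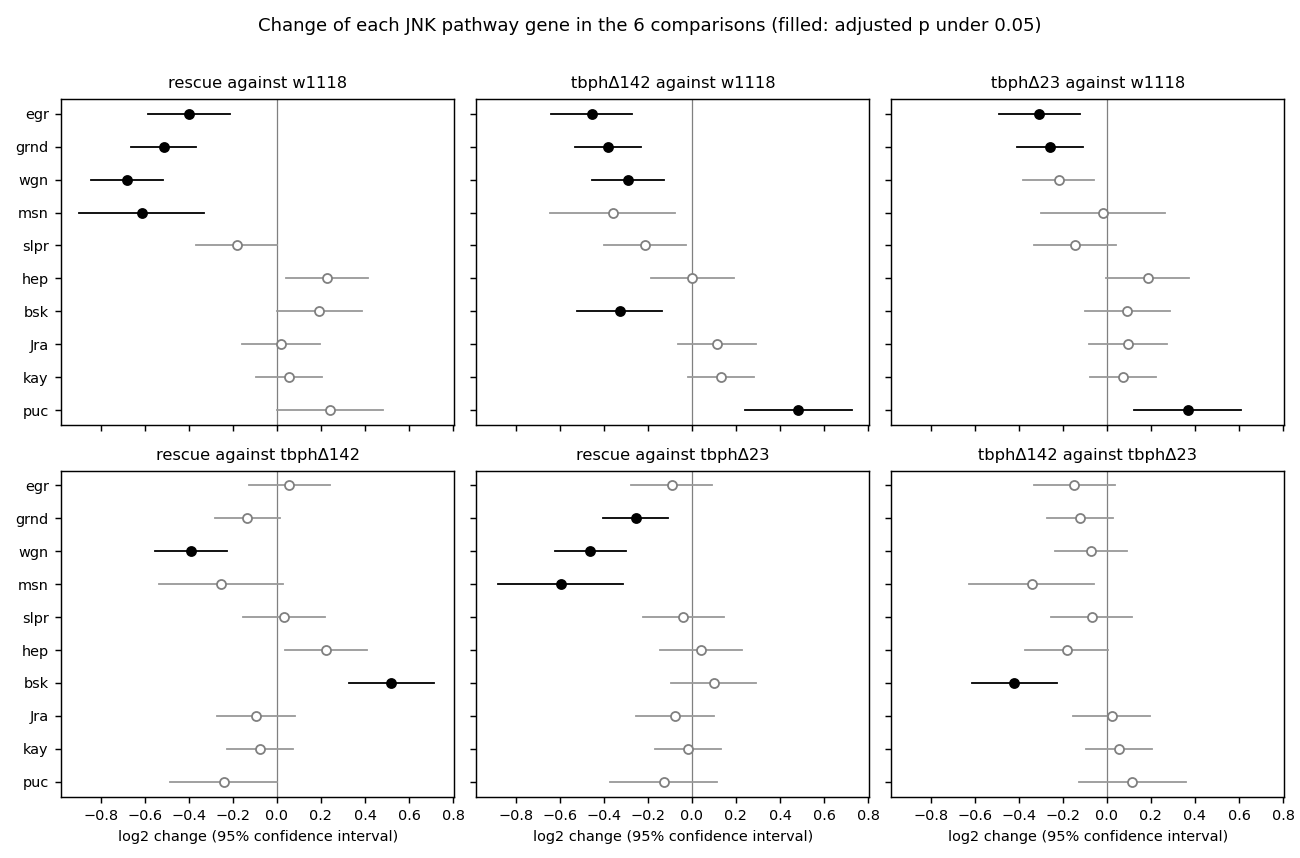
Log2 change of each of the 10 genes in the 6 comparisons, with 95% confidence intervals from limma (n = 3 arrays per group). Filled points have an adjusted p under 0.05 over all 11982 genes. The 3 upper panels share the w1118 arrays, and in each of them egr and grnd are filled to the left of 0, while puc is filled to the right only for the 2 mutants.

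Around the 10 genes, the kinase *wnd* and the scaffold *Aplip1* changed by more than 1 log2 unit, further than any of the 10. They come from lists of pathway genes written from general knowledge, of which those with a probe set of their own were measured. For each list, the share of all genes higher and lower against *w1118* was 16.9% and 18% in the rescue, 10% and 15% in *tbphΔ142* and 9.4% and 11.9% in *tbphΔ23*, and with few genes in a list the counts are descriptions. Of 18 listed upstream and adaptor genes 9 were measured, and 3 were higher and 1 lower in *tbphΔ142*, 3 and 1 in *tbphΔ23*, and 4 and 1 in the rescue, all against *w1118*. The median of the 9 stayed near 0, at 0.012, 0.018 and -0.014 in the rescue, *tbphΔ142* and *tbphΔ23*. Wallenda (*wnd*), the DLK-type kinase that starts JNK signaling in injured axons, read 8.84, 9.07 and 9.01 in the rescue, 8.92, 8.87 and 8.84 in *tbphΔ142*, 8.93, 9.0 and 8.94 in *tbphΔ23*, and 7.53, 7.46 and 7.68 in *w1118*. It was more than 1 log2 unit above *w1118* on every array of the other groups. The change was 1.41 in the rescue (fold 2.66, adjusted p = 5.95e-08), 1.32 in *tbphΔ142* (fold 2.5, adjusted p = 5.14e-07) and 1.40 in *tbphΔ23* (fold 2.63, adjusted p = 4.14e-07). The rescue was not called against *tbphΔ142* (0.09, adjusted p = 0.411) or *tbphΔ23* (0.015, adjusted p = 0.913).

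*Tab2*, the binding partner of the kinase Tak1, was higher by 0.46 in the rescue (adjusted p = 0.000646), 0.52 in *tbphΔ142* (0.000488) and 0.26 in *tbphΔ23* (0.037), the last of these lost in 4 of the fits without 1 array. *Mkk4*, which like Hemipterous phosphorylates Basket, was higher in the rescue (0.23, adjusted p = 0.0408) and *tbphΔ142* (0.44, adjusted p = 0.00168) and had a value of 0.23 in *tbphΔ23* that did not pass (0.064). *hiw*, the ubiquitin ligase that limits Wallenda protein, was higher in the rescue (0.35, adjusted p = 0.00439) and *tbphΔ23* (0.42, adjusted p = 0.00275) but not called in *tbphΔ142* (0.19, adjusted p = 0.107). *Traf4*, a TNF receptor-associated adaptor, was the gene that fell, with changes of -0.69 in the rescue, -0.44 in *tbphΔ142* and -0.35 in *tbphΔ23* against *w1118*. Its change came from 1 of its 2 probe sets, which gave -1.275, -0.87 and -0.65 in the same order of groups, while the other gave -0.10, -0.001 and -0.05 and was not called.

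Among scaffolds and negative regulators 8 of 9 listed genes were measured, and 3 were higher and 0 lower in either mutant against *w1118*. In the rescue 2 were higher and 2 lower than in *w1118*. Aplip1, the JIP1-type scaffold that links JNK to kinesin transport in axons, read 8.42, 8.42 and 8.49 in the rescue, 8.86, 8.77 and 8.48 in *tbphΔ142*, 8.53, 8.60 and 8.61 in *tbphΔ23*, and 7.57, 7.09 and 7.39 in *w1118*. Like *wnd*, it stayed high in the rescue, with changes against *w1118* of 1.09 in the rescue (adjusted p = 2.05e-05), 1.35 in *tbphΔ142* (1.04e-05) and 1.23 in *tbphΔ23* (2.81e-05). *raw*, which restrains JNK-dependent transcription in the embryo, behaved differently. It read 8.95, 9.0 and 9.08 in the rescue, 9.58, 9.65 and 9.54 in *tbphΔ142*, 9.40, 9.65 and 9.61 in *tbphΔ23*, and 9.15, 9.26 and 9.20 in *w1118*. The mutants were the highest groups and the rescue the lowest, without overlap of either with *w1118*, although the rescue was not called against it (-0.19, adjusted p = 0.068). The mutant changes were 0.385 in *tbphΔ142* (adjusted p = 0.00288) and 0.35 in *tbphΔ23* (0.00623), and the rescue was lower by -0.58 against *tbphΔ142* (0.000167) and -0.54 against *tbphΔ23* (0.000207).

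*peb* (Hindsight), a zinc finger protein that lowers JNK signaling in the embryonic amnioserosa, was 0.815 higher in *tbphΔ142* (adjusted p = 0.00025) and 0.81 higher in *tbphΔ23* (0.000379). The rescue lay between, by -0.37 against *tbphΔ142* (0.0291), -0.36 against *tbphΔ23* (0.0301) and 0.445 against *w1118* (0.00865). Both comparisons with the mutants were lost when single arrays were left out, at adjusted p of up to 0.0832 against *tbphΔ142* and 0.116 against *tbphΔ23*. *Cka*, a scaffold that brings Hemipterous, Basket and AP-1 together, was lower in the rescue only, by -0.57 against *w1118* (0.000219), -0.46 against *tbphΔ142* (0.00173) and -0.675 against *tbphΔ23* (8.36e-05), while the mutants had -0.11 and 0.11 and were not called.

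Other transcription factors that work beside AP-1 were measured for 4 of 5 listed genes. Against *w1118*, 1 was higher and 1 lower in the rescue, 2 and 1 in *tbphΔ142*, and 1 and 0 in *tbphΔ23*. *Atf-2*, a target of p38 kinases, rose in every group against *w1118*, with 8.79, 8.83 and 8.89 in the rescue, 8.22, 8.09 and 8.05 in *tbphΔ142*, 8.38, 8.40 and 8.34 in *tbphΔ23*, and 7.89, 7.85 and 7.78 in *w1118*. The change was 1.00 in the rescue (adjusted p = 2.31e-07), 0.285 in *tbphΔ142* (0.00622) and 0.535 in *tbphΔ23* (0.000117), and the rescue was above both mutants without overlap. *aop* (Yan), an ETS repressor that JNK counteracts in dorsal closure, ran the other way. It was -0.935 in the rescue (7.17e-06), -0.46 in *tbphΔ142* (0.00288) and -0.145 in *tbphΔ23* (0.306) against *w1118*. *Atf3* was called higher than *w1118* in *tbphΔ142* only (0.36, 0.0113), with 0.23 in the rescue (0.0674) and 0.13 in *tbphΔ23* (0.336). *foxo* was not called against *w1118* and was 0.35 higher in the rescue than in *tbphΔ142* (0.035).

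Genes known to respond to JNK in other fly tissues did not move as 1 group. Of 20 listed, 13 were measured, and 3 were higher and 2 lower in *tbphΔ142*, 3 and 1 in *tbphΔ23*, and 0 and 5 in the rescue, all against *w1118*. Against the mutants the rescue had 0 higher and 6 lower (*tbphΔ142*) and 1 higher and 7 lower (*tbphΔ23*), where 14.3% and 13.2% of all genes were higher and lower against *tbphΔ142* and 14.3% and 15.1% against *tbphΔ23*. The rescue had a median change of -0.31 and -0.325 over the 13 genes, beside 0.01 and 0.013 over all genes. *Gadd45*, a stress gene, had the largest change. It read 5.38, 5.21 and 4.90 in the rescue, 6.53, 6.70 and 6.92 in *tbphΔ142*, 6.95, 6.76 and 6.65 in *tbphΔ23*, and 4.85, 5.31 and 4.50 in *w1118*. The mutants stood more than 1 log2 unit above both other groups, and the rescue overlapped *w1118*. It was 1.83 higher in *tbphΔ142* (fold 3.55, adjusted p = 3.2e-05) and 1.90 higher in *tbphΔ23* (fold 3.72, adjusted p = 3.41e-05) than in *w1118*, and the rescue was lower by -1.555 against *tbphΔ142* (9.89e-05) and by -1.62 against *tbphΔ23* (5.36e-05), while its value of 0.27 against *w1118* did not pass (0.297).

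*Timp*, the inhibitor of matrix metalloproteases, had smaller changes in the same directions as *Gadd45*, 0.33 higher in *tbphΔ142* (adjusted p = 0.00457) and 0.22 higher in *tbphΔ23* (0.0416) than in *w1118*. The rescue was lower by -0.43 against *tbphΔ142* (0.000732) and by -0.325 against *tbphΔ23* (0.00378). The *tbphΔ23* call was lost in 9 of the 12 fits without 1 array, at adjusted p of 0.0519 to 0.156. *GstD1*, a glutathione S-transferase, was lower than *w1118* throughout, by -0.50 in the rescue (0.000112), -0.57 in *tbphΔ142* (8.78e-05) and -0.725 in *tbphΔ23* (2.24e-05). *scaf* (Scarface), a secreted protease homolog expressed at the leading edge in dorsal closure, was low in the rescue only. It read 9.14, 8.92 and 9.10 in the rescue, 9.69, 9.70 and 9.59 in *tbphΔ142*, 9.62, 9.55 and 9.69 in *tbphΔ23*, and 9.73, 9.75 and 9.89 in *w1118*. The change against *w1118* was -0.74 in the rescue (1.25e-05), -0.13 in *tbphΔ142* (0.258) and -0.175 in *tbphΔ23* (0.132). The filamin gene *cher*, the relaxin-like peptide gene *Ilp8* and *Pvf1*, a ligand of the receptor Pvr, fell in the rescue against either mutant as well, with changes of -0.315 to -0.61, although *Ilp8* and *Pvf1* lost the call against *tbphΔ142* when single arrays were left out (adjusted p of up to 0.0656 and 0.128). The cytokine genes *upd1* and *upd2* and the growth factor *dpp* were not called in either mutant or the rescue against *w1118*. Group means of *upd1* and *upd2* were 3.181 to 3.47, near the bottom of the deposited range, so the missing call says little about them. Those of *Ilp8* were low as well, at 3.685 to 4.297. *Ets21C*, also low, had group means of 3.489 in the rescue, 3.798 in *tbphΔ142*, 3.905 in *tbphΔ23* and 3.501 in *w1118*. In *tbphΔ142* against *w1118*, *cher* was called higher (0.20, adjusted p = 0.042) and *Pvf1* lower (-0.33, 0.0341). Both calls were lost when single arrays were left out, at adjusted p of up to 0.13 and 0.133.

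**Figure D4:**
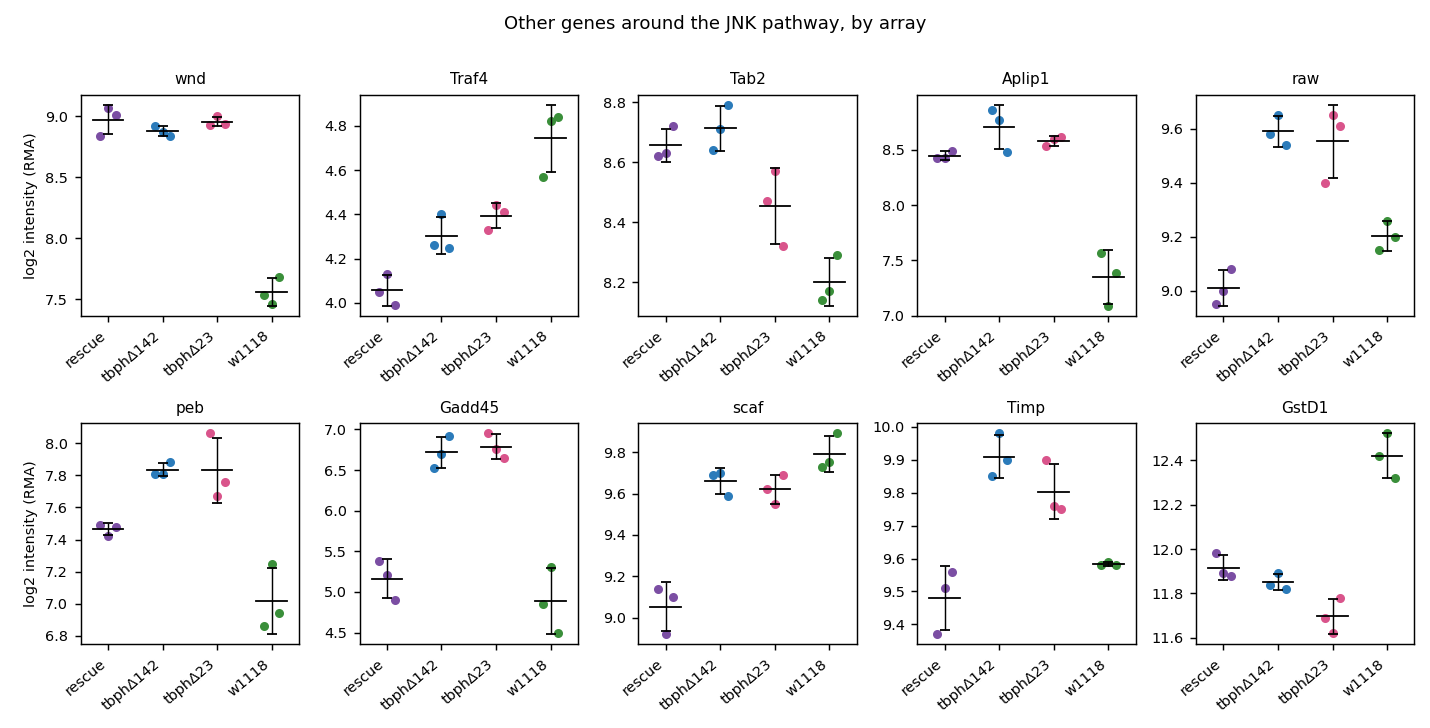
Log2 intensity (RMA) on each array of 10 genes around the pathway, in the rescue, tbphΔ142, tbphΔ23 and w1118. Points are arrays, horizontal bars are group means and whiskers are 1 SD (n = 3), with a separate vertical axis per panel that does not start at 0. The rescue sits with the mutants for wnd and Aplip1, with w1118 for Gadd45, and below both for raw and scaf.

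The other MAPK cascades, ERK and p38, were listed for comparison. Of 11 listed genes 7 were measured, with 1 higher and 1 lower in the rescue, 1 and 2 in *tbphΔ142*, and 0 and 1 in *tbphΔ23* against *w1118*. *Dsor1*, the MEK of the ERK cascade, was the gene lower in all 3, by -0.80 (adjusted p = 3.84e-05), -0.56 (0.000951) and -0.36 (0.0177, and 0.0623 without *tbphΔ23* replicate 1). *Egfr* was higher in the rescue by 0.53 against *w1118* (0.00223), by 0.48 against *tbphΔ142* (0.00655) and by 0.42 against *tbphΔ23* (0.012, and 0.053 without *tbphΔ23* replicate 2).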

How the data were processed

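RNA from fly heads was hybridized to Affymetrix expression arrays of the *Drosophila* genome, 12 in all, and the deposited log2 values were made by the authors with RMA (background correction, quantile normalization between arrays, summarization per probe set; version not given in the sources used here). They span 2.318 to 14.23. Of 18952 probe sets, 13647 are annotated to 1 gene, and their median per gene gave 11982 genes, with no filter on level. The 402 probe sets with several genes and the 4903 not listed in the annotation were left out.

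All 12 arrays entered the same limma model (3.58.1, R 4.3.3), with a mean for each group and moderated variances, from which 6 contrasts were taken with two-sided p-values adjusted by the Benjamini-Hochberg method over all genes, at 0.05 with no fold threshold. The median SE was 0.0928 log2 units, so precision is limited by having 3 arrays a group. In simulated data for *tbphΔ23* against *w1118*, 200 of the 11982 genes were changed. Of these, 8.5% were recovered at a log2 change of 0.3, 70% at 0.5 and 98% at 1. In the measured data 21.3% of all genes were called in this comparison, a larger share than was changed in the simulation. The recovery rates therefore need not hold for the measured data. The replicates are biological per the labels, but no source says what their numbers pair, so groups were compared without a block.

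All 10 genes are described. From the other lists, the genes named are those with the largest changes past the threshold in the same direction in both comparisons of a pair, plus genes named to account for small counts, chosen after their values were seen. The genes and lists were chosen with earlier results of these data known. The alternatives were another scaling or summary, a filter on low values, other limma settings, a replicate block, each probe set alone and each array left out.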

Additional observations from a re-analysis of the deposited data

Results flagged for a closer look

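*bsk*, which encodes the JNK, differed between the alleles, with a log2 change of -0.421 in *tbphΔ142* against *tbphΔ23* (limma, adjusted p = 0.0247). It was the only 1 of the 10 genes whose response differed between the mutants by a test of that difference, in a comparison that called 3.49% of all genes. *bsk* was 8.45 to 8.59 in *tbphΔ142* and 8.91 to 9.03 in *tbphΔ23*. Its brightest probe set gave -0.23 (adjusted p = 0.0754) and its dimmest -0.15 (0.56). Without any 1 of the 6 mutant arrays the adjusted p was 0.0541 to 0.0939, and the cause was not tested.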

How the results depend on the processing

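For the changes of the 10 genes over the 6 comparisons, 672 refits without 1 array kept their direction and their side of the threshold, 21 lost the call, 10 gained it and 17 turned sign, and under the other settings of the fit the counts were 446, 6, 15 and 13. The 672 include refits without an array of a group outside the comparison, where the log2 change cannot move. They also include genes called in neither fit, so this count is not a measure of how firm the calls are. Calls of *egr* and *grnd* against *w1118* in *tbphΔ142* and the rescue, of *wgn* and *msn* against *w1118* in the rescue, of *wgn* in the rescue against either mutant and of *puc* in *tbphΔ142* were kept in every refit without 1 array. Without 1 array the number of the 10 genes called was 1 to 4 in *tbphΔ23* against *w1118* (1 without *tbphΔ23* replicate 1 or 2 or *w1118* replicate 2 or 3) and 0 to 1 between the alleles (0 without any 1 mutant array), and the number of all genes called between the alleles was 134 (without *tbphΔ23* replicate 3) to 611, against 809 with array weights. With probe sets one by one, 4 of the 10 genes were called for the rescue against *tbphΔ142* (*egr*, *wgn*, *hep* and *bsk*). Between the alleles 0 were called with arrays centred (*bsk* -0.39, adjusted p = 0.057) and 0 with the brightest probe set as gene level (*bsk* -0.23, adjusted p = 0.0695). Centring also ended the *bsk* call of *tbphΔ142* against *w1118* (-0.28, adjusted p = 0.0602), as did the brightest probe set (-0.06, 0.545), which ended that of the rescue against *tbphΔ142* too (0.11, 0.233). *wgn* in *tbphΔ23* against *w1118* passed with quantiles equalised again (0.034), with dim genes left out (0.0341), with trend and robust options (0.0444) and with array weights (0.0442). *msn* in *tbphΔ142* against *w1118* passed with dim genes left out (0.0461), trend and robust options (0.0454) and array weights (0.0204), and in the rescue against *tbphΔ142* in a fit of these groups alone (0.0493). *slpr* in *tbphΔ142* against *w1118* passed with array weights (0.0207). *hep* passed in the rescue against *w1118* with arrays centred (0.0423), quantiles equalised again (0.0282) and dim genes left out (0.04), and against *tbphΔ142* with dim genes left out (0.0488) and array weights (0.0354). Calls were also gained without 1 array, in 3 refits for *wgn* in *tbphΔ23* and 2 for *msn* in *tbphΔ142* against *w1118*. In the rescue against *w1118* they were *slpr* without rescue replicate 3 (adjusted p = 0.0327), and *hep* (0.0211) and *bsk* (0.0166) without *w1118* replicate 1. In the rescue against *tbphΔ142* they were *hep* without *w1118* replicate 2 (0.0179) and *puc* without *tbphΔ142* replicate 3 (0.0295). No cause was tested.

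After each group's mean was subtracted from every gene, 18 same-numbered pairs of arrays from different groups had correlations of -0.212 to 0.0914. With 3 arrays a group, such values cannot show whether the replicate numbers pair the samples. With the replicate block, 2 of the 10 genes were called in *tbphΔ23* against *w1118* (*puc* was lost, adjusted p = 0.0625) and 6 in *tbphΔ142* against *w1118* (*msn* was gained, 0.0493), and the counts of the rescue comparisons stayed at 4 against *w1118*, 2 against *tbphΔ142* and 3 against *tbphΔ23*.

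Signs turned mostly for values near 0. In *tbphΔ23* against *w1118*, *msn* was 0.004 with arrays centred, 0.003 with quantiles equalised again and -0.158 to 0.076 without 1 array, *hep* was -0.122 on probe set 1623804_a_at, and *bsk* was -0.677 on 1634580_at. In *tbphΔ142* against *w1118*, *hep* was -0.063 with array weights, -0.064 on 1623804_a_at, -0.058 on 1626465_a_at and -0.101 to 0.077 without 1 array, and *Egfr* was -0.032 to 0.136 without 1 array. For the rescue against *w1118*, *hep* was -0.104 on 1623804_a_at, *bsk* -0.283 on 1634580_at, *kay* -0.027 on 1636185_at, and *Jra* -0.013 to 0.06 without 1 array. Against *tbphΔ142* the rescue gave -0.245 for *egr* and 0.013 for *kay* with the brightest probe set (1639671_at and 1640886_a_at), -0.039 for *hep* on 1623804_a_at, and -0.048 to 0.086 for *slpr* without 1 array. Against *tbphΔ23* it gave 0.008 with arrays centred, 0.005 with quantiles equalised again, 0.066 on the brightest probe set and -0.057 to 0.031 without 1 array for *kay*, -0.121 for *bsk* on the brightest probe set, 0.03 for *egr* on 1629442_at, 0.011 with array weights and -0.119 to 0.007 without 1 array for *slpr*, and -0.032 to 0.081 without 1 array for *wnd*. Between *tbphΔ142* and *tbphΔ23*, the brightest probe set gave 0.031 for *egr* and 0.047 for *hep*, which was 0.058 on 1623804_a_at, array weights gave -0.022 for *Jra* and -0.003 for *peb*, and *Traf4* was 0.048 on its unchanged probe set. Without 1 array the allele differences spanned -0.056 to 0.071 for *Jra*, -0.002 to 0.227 for *puc*, -0.147 to 0.022 for *Egfr*, -0.168 to 0.025 for *Gadd45*, -0.034 to 0.062 for *Mekk1*, -0.074 to 0.123 for *peb* and -0.042 to 0.084 for *raw*.

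With 3 arrays a group, small shifts can stay undetected. Whole heads mix cell types whose markers moved with the groups, and transcript levels say nothing of kinase activity.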

Other observations

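Over the 12 arrays, the values most like those of *egr* were those of *Dip-C* (Pearson r = 0.974), *CG6583* (0.958) and *CG1902* (0.954). *grnd* was matched most closely by *Mdr65*, *sas* and *Sema5c*, each at 0.963, of which *Mdr65* is a glial marker that was lower against *w1118* by -0.93 in the rescue, -0.77 in *tbphΔ142* and -0.51 in *tbphΔ23* (limma, adjusted p = 2.23e-06, 2.66e-05 and 0.000661). Glial markers did not move together, so *Mdr65* does not stand for all of them. Of the 7 measured, 2 were higher in the rescue than in *tbphΔ23* (*repo* by 0.477 and *wrapper* by 0.275) and 2 were lower. *puc* was matched by *Edc3* (0.945), *Sxl* (0.937) and *Pdk1* (0.93). These correlations are descriptions, since the points share 4 groups. On chromosome arm 2R, *egr* and *Jra* have 2 genes between them in RefSeq, *CG2269* and *sut4*, and *Jra* was called in no comparison.

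Among the other MAPK genes, *p38c* was higher in the rescue than in either mutant, by 0.66 against *tbphΔ142* (limma, adjusted p = 0.00947) and by 0.55 against *tbphΔ23* (0.0227), and was not called against *w1118* (0.38, 0.0905). Its call against *tbphΔ23* was lost without 1 of 3 arrays (adjusted p of 0.0531 to 0.0945) and in a fit of these groups alone (0.0794). The group means of *p38c* were 3.304 to 3.967, near the bottom of the deposited range. *Mekk1*, a kinase upstream of p38, was lower in the rescue by -0.34 against *tbphΔ142* (0.00508) and by -0.32 against *tbphΔ23* (0.007). Against *w1118* the rescue was not called (-0.11, 0.283). *tbphΔ142* was higher than *w1118* by 0.23 (0.0418), a call lost without single arrays (adjusted p of up to 0.146). *tbphΔ23* had a value of 0.21 that did not pass (0.0737).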
